A study of Rattus norvegicus with 6 samples.

Results

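Medium spiny neurons with a high load of activity genes were picked out of single-nucleus RNA-seq of the nucleus accumbens shell, the outer subregion of the ventral striatum. Members were chosen by measured counts in the same nuclei: a nucleus was a member when it held at least 5 unique molecular identifiers (UMIs, counted mRNA molecules) of Pde10a, at least 2 of Nr4a3 and at least 5 of Homer1. Of 37456 nuclei kept, 14945 reached the Pde10a limit and 1422 were members. Female pools 1 to 3 gave 68, 37 and 880 members, and male pools 1 to 3 gave 405, 20 and 12. The comparison nuclei also had at least 5 UMIs of Pde10a but no UMI of Nr4a3. Of 12231 such nuclei, 1373 were matched to as many members of the same library by their total UMIs, within 10%.

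The tissue came from untreated adult Long-Evans rats aged 90 to 100 days, housed in same-sex pairs. There were 3 female and 3 male libraries, and each was made from tissue of 4 animals of 1 sex, pooled before the nuclei were isolated. No treatment or behaviour that would set off activity genes is named in the labels. Replicates are pools, so the p-values below measure the spread between pools and not between animals.

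Spiny projection neurons make up most of the striatum and are split into a Drd1 type and a Drd2 type by their dopamine receptor. When such a neuron fires strongly, calcium and cAMP signals reach the nucleus and switch on immediate early genes within minutes, many of them transcription factors of the Fos, Egr and Nr4a families. These factors then act on later genes that encode peptides, synaptic proteins and signalling inhibitors. Nr4a3 is an orphan nuclear receptor of this early wave, and Homer1 encodes a postsynaptic scaffold protein with a short activity-induced form. Pde10a is the striatal phosphodiesterase that marks spiny neurons.

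The cAMP response element (letters TGACGTCA, a palindrome bound by CREB) was searched in RefSeq promoters of build GRCr8, from 250 bases before to 50 after each gene start. It lay in 41 of 438 promoters (9.36%) of the genes found higher in members below. The share was 3.03% of 7721 promoters of all genes tested, 1.83% of 33469 promoters in the table and 0 of 48 promoters of genes lower in members. Symbols matched for 382 of the 515 genes higher in members, and a gene with several starts has several promoters. The other motifs searched were as follows: the AP-1 site (TGANTCA) was in 5.25% of promoters of the higher genes and 4.35% of those tested, the Nr4a-bound NGFI-B element (AAAGGTCA) in 0.457% and 0.725%, and the CArG box of serum response factor in 2.97% and 1.35%. All were read on both strands, and a match describes letters only. Stretches of 60 bases that hold the element are shown for 6 genes of the lists described below, which rose in members, with the element in capitals and each read 5′ to 3′ on the gene's strand.
Btg2, chr13:48087858-48087917, minus strand: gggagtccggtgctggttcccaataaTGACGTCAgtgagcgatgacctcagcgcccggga
Dusp1, chr10:17184703-17184762, plus strand: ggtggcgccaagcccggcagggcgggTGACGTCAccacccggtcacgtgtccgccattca
Scg2, chr9:88256956-88257015, minus strand: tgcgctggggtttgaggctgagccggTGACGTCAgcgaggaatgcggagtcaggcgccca
Plk2, chr2:43702444-43702503, plus strand: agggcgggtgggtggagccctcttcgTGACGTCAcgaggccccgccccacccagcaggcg
Vgf, chr12:25277077-25277136, minus strand: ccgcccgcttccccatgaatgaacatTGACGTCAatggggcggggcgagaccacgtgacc
Cartpt, chr2:32991344-32991403, minus strand: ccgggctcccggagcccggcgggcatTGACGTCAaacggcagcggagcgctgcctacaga

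The labels separate the libraries into sets. Female pool 3 and male pool 1 (set A) carry a strain tag, and the other 4 libraries (set B) do not. Set A held most members and the deeper nuclei, with a median of 14311 and 14406 UMIs per member, against 6407 to 10060 UMIs in set B. Across genes, the correlation of log2 CPM (counts per 1000000 UMIs) of members was 0.982 within set A, 0.665 to 0.905 within set B and 0.576 to 0.881 across the sets. Set B sums were small: in male pool 3 the members held 74858 UMIs, so 1 UMI was 13.4 CPM. A barcode sequence shared by at least 2 libraries was carried by 332 kept nuclei (0.886%).

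Set A members also carried markers of glutamatergic neurons, which lie outside the shell. At least 1 UMI of Slc17a7, Slc17a6, Neurod2, Neurod6 or Tbr1 was found in 53.8% of matched members of female pool 3 and 38.8% of male pool 1, against 30.2% and 12.8% of their comparison nuclei. In set B it was found in 0% to 5.88% of members and 0% to 5.56% of comparison nuclei. The summed level of the 6 glutamatergic markers was 187 and 183 CPM in set A members and 88.8 and 43.0 CPM in their comparison nuclei. In set B it was 25.2 to 53.0 CPM in members and 25.2 to 54.7 CPM in comparison nuclei, and Slc17a7 and Neurod2 were at 0 in all 4 member sums. Among the highest doublet scores were 39.4% of matched members of female pool 3 and 15.1% of male pool 1, against 35.7% and 16.4% of their comparison nuclei. Results are therefore also given after every nucleus with a glutamatergic UMI was left out, an alternative chosen after these markers were seen.

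The label of spiny neuron was checked against 10 measured markers, among them Ppp1r1b, Bcl11b, Rgs9 and Gad1. Their summed level was 4572 to 7378 CPM in members and 4764 to 6772 CPM in comparison nuclei, with none at 0 in members. Nuclei under the Pde10a limit had 2079 to 4000 CPM. Sums can hide single nuclei without a marker. At least 1 UMI of Gad1 or Gad2 was found in 90.4% to 100% of matched members per library and 91.7% to 100% of comparison nuclei. Without nuclei that held a glutamatergic UMI these shares were 99.2% to 100% and 91.7% to 100%. Summed oligodendrocyte markers were 233 to 566 CPM in members and 241 to 647 CPM in comparison nuclei, and astrocyte markers 57.5 to 156 and 25.2 to 224 CPM. Oligodendrocyte precursor markers were 0 to 75.6 CPM in members and 31.5 to 110 CPM in comparison nuclei, lower in members in 6 of 6 libraries. Microglia markers reached 13.4 to 57.5 CPM in members and 12.6 to 53.4 CPM in comparison nuclei. Interneuron markers stood at 53.4 to 142 CPM in members and 50.3 to 99.6 CPM in comparison nuclei.

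The genes of the rule are given as a description only, since they chose the nuclei. Nr4a3 stood at 428 to 990 CPM in matched members and at 0 in comparison nuclei by construction. Homer1 stood at 1171 to 3886 CPM in members and 414 to 480 CPM in comparison nuclei, on which no Homer1 limit was set. Single members held up to 82 UMIs of Nr4a3 and up to 192 of Homer1. Pde10a stood at 2118 to 2958 CPM in members and 1735 to 3107 CPM in comparison nuclei. In oligodendrocyte nuclei, which should lack the program, 0% to 3.23% had at least 2 UMIs of Nr4a3 and 0% to 7.44% at least 5 of Homer1, at a median depth of 1797 to 3058 UMIs. Their Homer1 level was 54.6 to 403 CPM. Their Nr4a3 level was 61.6 CPM in female pool 3 and 0 to 11.3 CPM in the other libraries. Both shares and both levels were highest in female pool 3. Matched members were deeper, at a median of 6407 to 13961 UMIs, so these shares are not at equal depth. The part of background RNA in the choice of members was not tested.

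Just inside the Nr4a3 limit, 306 nuclei with exactly 2 UMIs had 120 CPM of Nr4a1 and 8.41 CPM of Npas4. Just outside it, 674 nuclei with 1 UMI had 64.2 CPM of Nr4a1 and 5.42 CPM of Npas4. A glutamatergic UMI was found in 45.8% of the nuclei with 2 UMIs of Nr4a3 and 34.6% of those with 1. Among nuclei with no Nr4a3 and at least 5 UMIs of Homer1 it was 16.9%, and its part in these levels was not tested. At the Homer1 limit, 51 nuclei with 5 UMIs and 54 with 4 UMIs had 120 and 154 CPM of Nr4a1. Members were also binned from low to high Nr4a3, a gene of the rule, and pooled over libraries. The mix of libraries can differ between bins, and its part in the levels was not tested. Nr4a1 stood at 125 CPM in members with 2 to 3 UMIs of Nr4a3, 194 CPM with 4 to 7 and 261 CPM with 8 or more. Npas4 stood at 7.93, 15.5 and 28.2 CPM over the same bins, and Nts at 71.9, 123 and 221 CPM. Drd2 stood at 195, 195 and 175 CPM, and the median depth was 12454, 12596 and 15282 UMIs. A glutamatergic UMI was found in 45.1%, 41.9% and 49.5% of the nuclei in these bins.

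**Figure D1:**
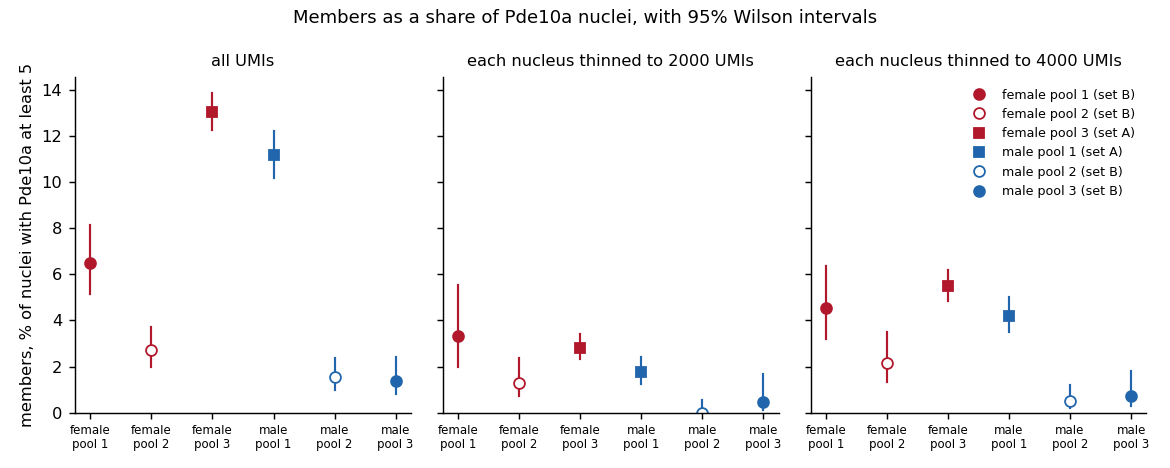
Members as a percentage of nuclei with at least 5 UMIs of Pde10a in each library, as counted and after each nucleus was thinned to 2000 or 4000 UMIs; lines are 95% Wilson intervals, red is female and blue male, squares are set A. As counted, set A libraries reach 13.0% and 11.2%, and set B libraries lie between 1.38% and 6.49%.

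Of Pde10a nuclei, the members' share was 6.49%, 2.72% and 13.0% for female pools 1 to 3, against 11.2%, 1.54% and 1.38% for male pools 1 to 3. Female pools averaged 7.42% ± 5.22 and male pools 4.70% ± 5.60 (SD over 3 pools per sex, exact 2-sided permutation p = 0.5). With so few pools no p under 0.1 is possible. The rule counts UMIs, so the share was also taken at equal depth. After thinning to 2000 UMIs a nucleus, which left out 623 to 3013 shallower nuclei per library, the shares were 3.34%, 1.29% and 2.81% in females and 1.74%, 0% (0 of 694 nuclei, 95% Wilson interval up to 0.550%) and 0.460% in males. After thinning to 4000 UMIs they were 4.53%, 2.17% and 5.49% in females and 4.20%, 0.513% and 0.705% in males (exact permutation p = 0.2 at both depths). Females were above males within set A by 1.88 points and within set B by 3.14 points as counted, but in set A the difference was -0.718 points without the highest doublet scores and -0.484 points without glutamatergic UMIs. The 95% Wilson intervals in the plot of members as a share of Pde10a nuclei cover counting error only.

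Beside matched nuclei of the same library, members carried a broad activity program. Members had 515 genes higher (5.82% of 8843 tested) and 56 lower (0.633%) at an adjusted p under 0.05, by edgeR's quasi-likelihood test on UMI sums per library with library as a block. The higher genes changed by a median of 0.61 on the log2 scale, and 102 of them by over 1 and 25 by over 2. The lower genes changed by a median of -0.44, and none passed 1. The 3 genes of the rule were left out of the test. Members were chosen in these same nuclei, so the test is no independent support for a link of these genes with Nr4a3 or Homer1. It weighs the difference against its spread between libraries. The direction was the same in 6 of 6 libraries for 235 of the 515 higher genes and 17 of the 56 lower genes. Without nuclei that held a glutamatergic UMI, 450 genes were higher (5.17% of 8696) and 28 lower. Of the 515 higher genes 479 were then tested and 306 remained called, but of the 56 lower genes 8 did.

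All 12 immediate early transcription factors that passed the filter on low counts, of 25 listed, rose in members, with a median log2 fold change of 3.75 against -0.01 over all genes tested. The other 13 had too few UMIs to be tested, and a factor that passed only through its level in members had to differ, so the count is no support. Fosl2, which encodes the Fos relative Fra-2, had 199, 168 and 105 CPM in members (female pools 1 to 3) and 121, 56.7 and 147 CPM (male pools 1 to 3). Its matched comparison nuclei had 3.91, 0 and 6.71 CPM in females and 8.17, 0 and 0 CPM in males. The groups did not overlap, and the log2 fold change was 4.13 (SE 0.15, adjusted p = 2.24e-14, higher in 6 of 6 libraries).

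Fosb, whose stable protein form builds up in the striatum under repeated stimulation, had 40.1 to 141 CPM in members (median 89.4) and 0 to 2.31 CPM in comparison nuclei. It changed by 5.02 on the log2 scale (SE 0.19, adjusted p = 2.76e-14), the highest of all genes called. Npas4, a factor induced by calcium entry and little else, had 14.2 to 107 CPM in members (median 44.5), and no UMI was counted in comparison nuclei of any set B library. Set A comparison nuclei had 0.820 and 0.969 CPM of Npas4. Nr4a1, the close relative of Nr4a3, had 360, 407 and 176 CPM in members (female pools 1 to 3) and 271, 271 and 347 CPM (male pools 1 to 3). In comparison nuclei Nr4a1 had 13.0, 8.84 and 16.2 CPM in females and 14.7, 0 and 13.4 CPM in males. Every member sum was above every comparison sum, and the log2 fold change was 4.04 (SE 0.18, adjusted p = 1.68e-10).

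The zinc finger factors of the Egr family moved with them. Egr4 had 39.6 to 239 CPM in members and 0 to 22.1 CPM in comparison nuclei, Egr2 had 6.25 to 40.4 and 0 to 1.30 CPM, and Egr1 had 62.3 to 171 and 12.6 to 28.7 CPM. The ranges of members and comparison nuclei did not overlap for these genes. The share of all tested genes without overlap was not counted, so this is a description. Junb, the Fos partner, had 49.3 to 340 CPM in members and 8.72 to 30.9 CPM in comparison nuclei (log2 fold change 2.66, adjusted p = 1.18e-13, edgeR). Fos itself changed by 3.48 and was higher in 5 of 6 libraries, since no UMI was counted in the 12 members or 12 comparison nuclei of male pool 3. Btg2, an antiproliferative early gene, changed by 3.12, and Srf, which encodes the serum response factor that switches on Fos, by 0.64. After the glutamatergic nuclei were left out, 11 of these factors could be tested and all 11 were higher, with a median of 3.97.

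Nr4a2 was the exception. It was at 33.3 and 46.8 CPM in set A members and 2.61 and 2.08 CPM in their comparison nuclei, and no UMI was counted in either group of any set B library. It was found in 19.0% and 22.4% of set A members, against 0 of 68, 36, 20 and 12 matched members in set B. Fits within set A, here and below, hold only 2 libraries, so their p-values lean on the spread of other genes. Nr4a2 missed the filter once glutamatergic nuclei were left out, and its log2 fold change within set A was then 2.21 (edgeR adjusted p = 0.0177), against 4.02 within set A before. Bdnf, which encodes a neurotrophin that cortical neurons supply to the striatum, had the same pattern, at 47.3 and 47.6 CPM in set A members and 0 in all 4 sums of set B members. Its comparison nuclei had 6.26 and 2.91 CPM in set A and 0 to 3.91 CPM in set B. A Bdnf UMI was found in a mean of 6.65% of matched members and 2.33% of comparison nuclei over the 6 libraries. Without glutamatergic nuclei these means were 0.926% and 1.06%, with members higher in 2 libraries and lower in 1. The part of glutamatergic RNA in these values was not tested.

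**Figure D2:**
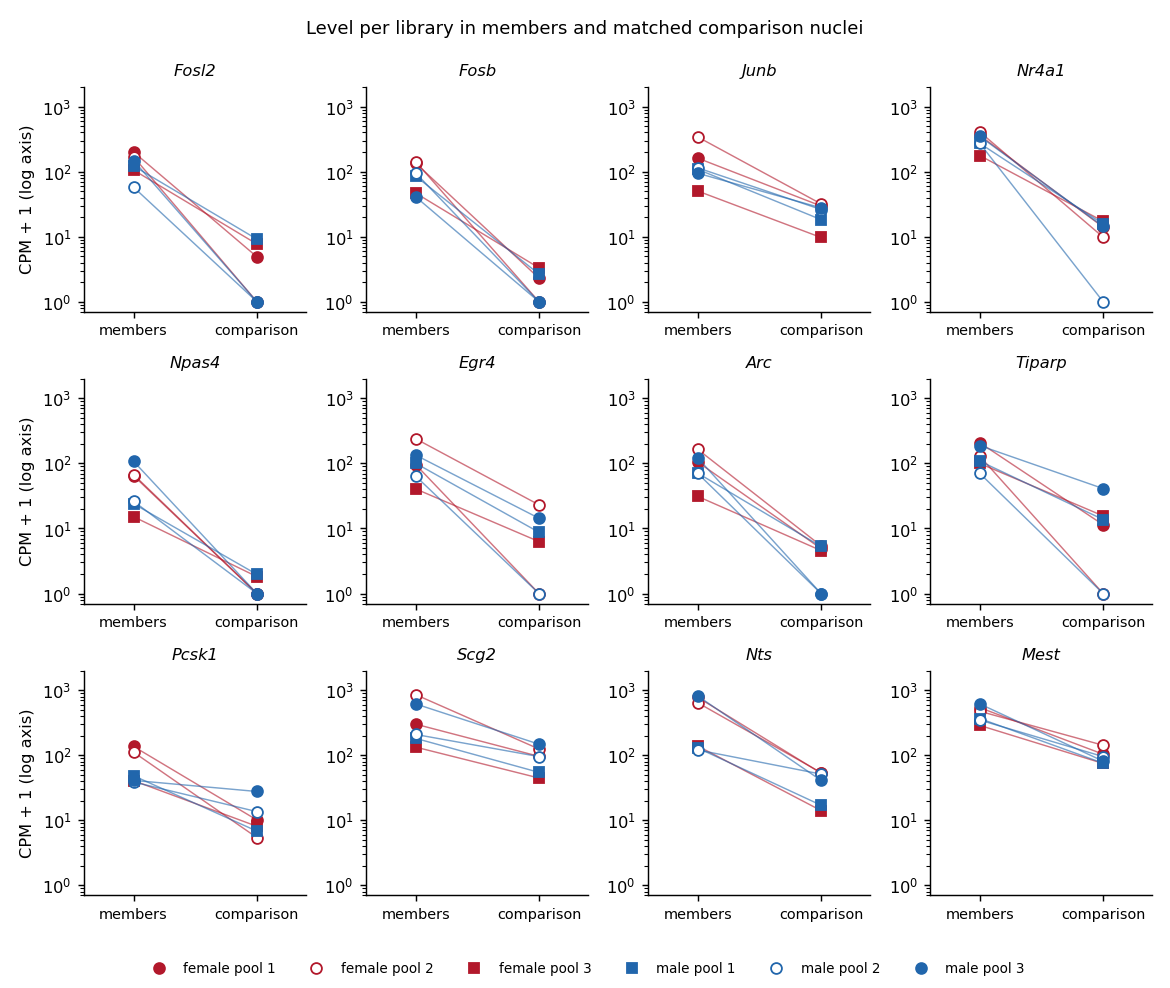
CPM plus 1 (log axis) of 12 genes in members and matched comparison nuclei, 1 point per library joined by a line; red is female, blue male and squares are set A. Comparison points at 1 are libraries with no UMI of the gene, and for Fosl2, Fosb and Nr4a1 every member point lies above every comparison point.

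Activity-induced effectors followed. Of 30 listed, 18 passed the filter and 14 rose, with a median log2 fold change of 1.74 against -0.01 over all genes tested, and none fell. As with the early factors, genes that passed the filter through their level in members had to differ, so the count and the median are a description. Arc, which encodes a capsid-like protein that removes AMPA receptors from synapses, had 30.1 to 164 CPM in members and 0 to 4.42 CPM in comparison nuclei (log2 fold change 3.73, adjusted p = 1.66e-12, edgeR). Tiparp, a poly-ADP-ribose polymerase, had 69.3 to 207 CPM in members and 0 to 40.1 CPM in comparison nuclei. Gadd45g, a growth arrest gene linked to DNA demethylation, changed by 2.75, and Ptgs2, the inducible cyclooxygenase, by 2.34.

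Pcsk1, which cuts peptide precursors in secretory granules, had 37.8 to 135 CPM in members and 4.42 to 26.7 CPM in comparison nuclei (log2 fold change 2.86). Scg2, a granule protein, had 132 to 853 CPM in members and 43.7 to 147 CPM in comparison nuclei. Its groups overlapped across libraries, but it was higher in members of 6 of 6. The small GTPase gene Rheb changed by 1.60, the synaptotagmin gene Syt4 by 1.56 and the polo-like kinase gene Plk2 by 1.35. Nptx2, a synaptic pentraxin, changed by 2.43 with 27.3 and 32.4 CPM in set A members and 0 to 26.7 CPM in set B members. An Nptx2 UMI was found in a mean of 13.8% of matched members and 4.10% of comparison nuclei, higher in 5 of 6 libraries and lower in 0. Without glutamatergic nuclei these means were 9.74% and 2.91%. The secreted growth factor precursor Vgf changed by 0.53, the repressor Nfil3 by 2.54 and the heat shock relative Dnajb5 by 0.76. Members that did not pass were Inhba, Sgk1, Sorcs3 and Nefm. Without glutamatergic nuclei 14 of 17 were higher.

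Outside the lists, Mest, an imprinted hydrolase gene, had 286 to 614 CPM in members and 73.8 to 141 CPM in comparison nuclei. It changed by 2.23 on the log2 scale (SE 0.12, edgeR adjusted p = 5.1e-12), and by 2.29 and 2.17 after female pool 3 or male pool 1 was left out. Irs2, an insulin receptor substrate, had 81.8 to 361 CPM in members and 37.7 to 66.8 CPM in comparison nuclei and changed by 2.08. Rxfp1, the relaxin receptor gene, changed by 1.71, but by 0.79 with an adjusted p of 0.0519 after glutamatergic nuclei were left out.

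Peptide genes were high in members too. Of 16 listed peptide and peptide-processing genes 13 passed the filter and 8 rose, with a median log2 fold change of 0.65. Over all genes tested 5.82% rose. Here too a gene that passed the filter through its level in members had to differ, so the count is a description. Neurotensin (Nts), a peptide that acts on dopamine neurons and was already known to mark such nuclei in these data, stood in members at 776, 641 and 138 CPM (female pools 1 to 3) and 128, 120 and 815 CPM (male pools 1 to 3). Comparison nuclei had 52.1, 53.0 and 13.1 CPM in females and 16.1, 50.3 and 40.1 CPM in males. The groups did not overlap, and the log2 fold change was 3.43 (SE 0.17, adjusted p = 1.86e-10).

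An Nts UMI was found in 52.9%, 55.6% and 28.0% of matched members (female pools 1 to 3) and 25.7%, 45% and 50% (male pools 1 to 3). In comparison nuclei it was found in 26.5%, 25% and 14.2% in females and 18.4%, 35% and 8.33% in males. The mean difference was 21.6 points, higher in 6 of 6 libraries (exact sign-flip permutation p = 0.031, the smallest that 6 libraries can give, adjusted p = 0.094 over the 3 shares tested). Nts was already known to mark such nuclei in these data, so the direction is not independent and the test is no independent support. Oligodendrocyte nuclei, which should lack Nts, had an Nts UMI in 11.3% to 13.6% of nuclei in set B and 3.42% to 4.22% in set A, at a median of 1797 to 3058 UMIs, against 6407 to 13961 UMIs in matched members. Their Nts level was 51.9 to 98 CPM in set B, against 40.1 to 53.0 CPM in set B comparison nuclei. In set A it was 11.7 CPM in female pool 3 and 10.1 CPM in male pool 1, against 13.1 and 16.1 CPM in their comparison nuclei. The part of background RNA in these levels was not tested. Members of male pool 2 had 120 CPM and the other set B members 641 to 815 CPM, all above the set B oligodendrocyte nuclei.

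Penk, the enkephalin precursor of the Drd2 type, had 117 to 791 CPM in members and 47.3 to 294 CPM in comparison nuclei (log2 fold change 1.36, adjusted p = 1.54e-08, edgeR). Tac1, the substance P precursor of the Drd1 type, had 250 to 1189 CPM in members and 81.9 to 428 CPM in comparison nuclei (1.70, adjusted p = 1.57e-06). Both were higher in 6 of 6 libraries. Pdyn, the dynorphin precursor, had a median of 49.4 CPM in members and 26.3 CPM in comparison nuclei and did not pass (0.28, adjusted p = 0.463), although without glutamatergic nuclei it was 0.77 and passed. Cartpt changed by 0.88, the granule protein Chgb by 0.51, the amidating enzyme Pam by 0.74 and the carboxypeptidase Cpe by 0.65. Cck changed by 1.47, with 29.9 and 37.4 CPM in set A members and 0 to 6.30 CPM in set B, and missed the filter without glutamatergic nuclei.

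**Figure D3:**
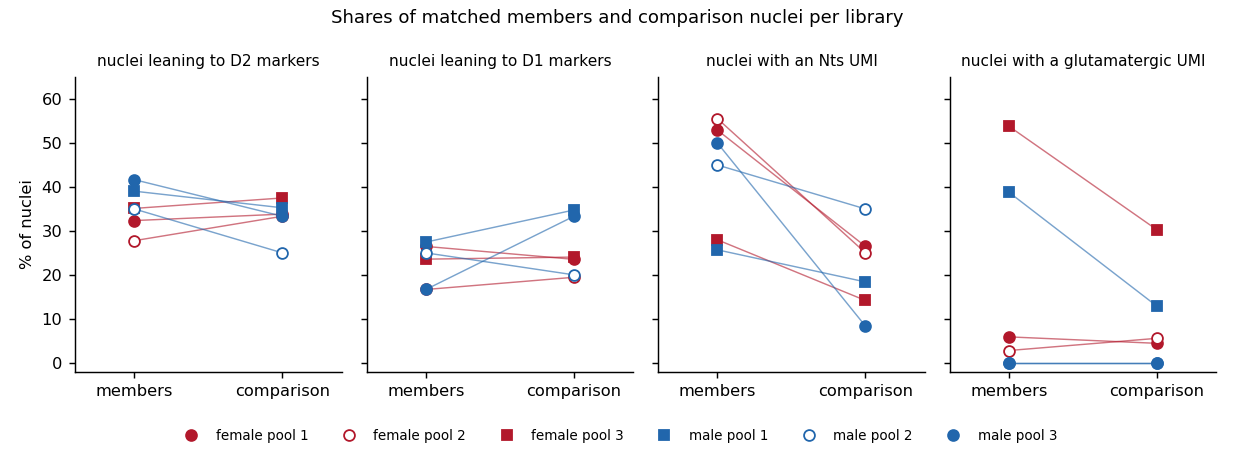
Percentage of matched members and comparison nuclei in each library that leaned to D2 markers, leaned to D1 markers, held an Nts UMI or held a glutamatergic UMI; red is female, blue male and squares are set A. Lines cross for the marker leanings, all 6 members' shares of Nts lie above those of their comparison nuclei, and the glutamatergic share reaches 53.8% and 38.8% in set A members.

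Some feedback genes rose too. Of 18 phosphatases and feedback inhibitors of MAP kinase signalling 10 passed the filter and 3 rose, against 5.82% of all genes tested. As with the early factors, a gene that passed the filter through its level in members had to differ, so the count is a description. Dusp1, a phosphatase that switches off MAP kinases, had 12.6 to 107 CPM in members and 0 to 6.29 CPM in comparison nuclei (log2 fold change 2.82, adjusted p = 2.46e-09, edgeR). Dusp14 changed by 1.75, and Spred1, an inhibitor of Ras signalling, by 0.90 with 294 to 526 CPM in members and 160 to 239 CPM in comparison nuclei. The median of the 10 was 0.22.

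CREB, its coactivators and the kinases that restrain them mostly did not pass. Of 22 listed, all tested, 4 rose, against 5.82% of all genes tested: Sik1, Crem, Hdac5 and Hdac9. Sik1, the inducible salt-inducible kinase that holds CREB coactivators in the cytoplasm, had 30.6 to 79.5 CPM in members and 0 to 13.4 CPM in comparison nuclei (log2 fold change 2.01, adjusted p = 7.58e-09, edgeR). Crem changed by 0.58, Hdac5 by 0.60 and Hdac9 by 0.45, or 0.21 and without passing after glutamatergic nuclei were left out. Sik2 had 281 to 1207 CPM in members and 107 to 192 CPM in comparison nuclei, without overlap, but its change of 1.64 (SE 0.37) had an edgeR adjusted p of 0.0595 over all 6 libraries. Fitted alone, set A gave 0.86 (adjusted p = 2.44e-06) and set B 2.48 (adjusted p = 6.17e-10), so Sik2 passed within each set. Sik3 had 481 to 1538 and 294 to 636 CPM (0.70, adjusted p = 0.0791).

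Among 22 tested genes of striatal cAMP signalling 2 rose and 1 fell, near the 5.82% higher and 0.633% lower of all genes tested, so the count is no result about the group. The cAMP phosphodiesterase Pde4a had 105 to 201 CPM in members and 26.7 to 85.4 CPM in comparison nuclei (log2 fold change 0.88, adjusted p = 0.000446, edgeR). Arpp21, a cAMP-regulated phosphoprotein of spiny neurons, had 1197 to 2016 CPM in members and 823 to 989 CPM in comparison nuclei (0.72, adjusted p = 4.3e-05). Pde1b, the calcium-activated phosphodiesterase, was lower by -0.42 (adjusted p = 0.0437), but by -0.26 and without passing after glutamatergic nuclei were left out. Ppp1r1b (DARPP-32), the dopamine-regulated phosphatase inhibitor, had 63.8 to 240 CPM in members and 85.2 to 227 CPM in comparison nuclei (-0.31, adjusted p = 0.0699).

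Genes of proteins that Homer1 binds did not pass. Of 18 tested Homer partners and scaffold genes 0 passed in either direction by edgeR, with a median log2 fold change of 0.01, while 3 had an unadjusted p under 0.05 and 1 passed by DESeq2. The metabotropic receptor gene Grm5 had 2259 to 2837 CPM in members and 2441 to 3417 CPM in comparison nuclei (-0.14, SE 0.08, adjusted p = 0.391). Of 17 glutamate and GABA receptor genes 2 rose, a share likewise near that of all genes: the NMDA receptor subunit Grin1 (0.46, adjusted p = 0.00406, edgeR) and the AMPA receptor subunit Gria3 (0.34, adjusted p = 0.0412). Gria3 did not pass without glutamatergic nuclei. The GABA-synthesizing enzyme gene Gad1 rose by 0.55. Of 12 dopamine, opioid and cannabinoid receptor genes tested 1 passed, again near the 5.82% of all genes. It was the cannabinoid receptor gene Cnr1 (0.95), which had 94.2 and 76.9 CPM in set A members and 4.42 to 13.4 CPM in set B members, against 60.4 and 32.0 CPM in set A comparison nuclei. Without glutamatergic nuclei Cnr1 changed by 0.62 (edgeR adjusted p = 0.0164), and within set A alone by 0.60 without passing (edgeR adjusted p = 0.0627). Of 10 heat shock and stress genes 4 rose, against 5.82% of all genes: Hspa8 (0.73), Hsph1 (0.73), Dnaja1 (0.50) and Ddit3 (0.89).

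**Figure D4:**
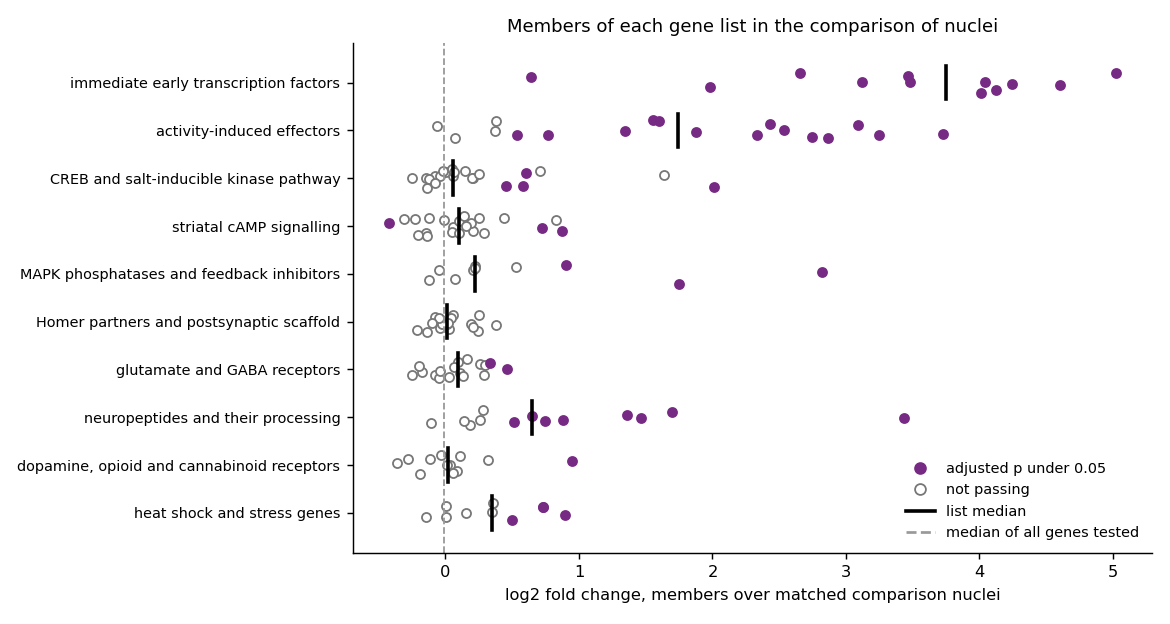
Log2 fold change of members over matched comparison nuclei for each tested gene of 10 lists; filled points have an adjusted p under 0.05, black bars are list medians and the dashed line is the median of all genes tested. Immediate early factors have a median of 3.75 and effectors of 1.74, and the Homer partners of 0.01.

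Genes that were lower in members changed little. Dclk3, a striatal kinase gene, had 40.1 to 91.4 CPM in members and 107 to 146 CPM in comparison nuclei, without overlap, and fell by 0.63 on the log2 scale (SE 0.11, adjusted p = 0.000696, edgeR). Tcerg1l was lower by -0.63, the endoplasmic reticulum gene Wfs1 by -0.50 and Caly, which binds dopamine receptors of the Drd1 type, by -0.44. Phyh had 8.84 to 29.4 CPM in members and 37.9 to 66.8 CPM in comparison nuclei, and Ptprz1, a receptor phosphatase that is also abundant in oligodendrocyte precursors, had 254 to 462 and 468 to 572 CPM. The summed markers of oligodendrocyte precursors were lower in members in the same 6 libraries, as given above, and their part in these values was not tested. Mob3b (-0.41), Arhgef40 (-0.52), Bcl7a (-0.42), Zfp507 (-0.36), Sox6 (-0.40) and Sgk3 (-0.32) complete the 12 genes with the smallest p that were lower in 6 of 6 libraries. Of these 12, Tcerg1l, Dclk3, Caly and Bcl7a still passed without glutamatergic nuclei.

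Members were found in both receptor types. Drd2 stood at 111 to 240 CPM in members and 152 to 258 CPM in comparison nuclei (log2 fold change -0.12, SE 0.12, adjusted p = 0.683, edgeR). Within set A without glutamatergic nuclei the change was 0.29 and passed (edgeR adjusted p = 0.0404). Nuclei with at least 2 UMIs of Drd2 and none of Drd1 were 27.9%, 11.1% and 34.9% of members (female pools 1 to 3) and 33.8%, 35% and 33.3% (male pools 1 to 3). In comparison nuclei they were 32.4%, 30.6% and 35.2% in females and 33.5%, 25% and 33.3% in males (mean difference -2.33 points, exact sign-flip permutation p = 0.625). Drd1 was sparse, and nuclei with at least 2 UMIs of Drd1 and none of Drd2 were 0% to 8.33% of members and 0% to 3.02% of comparison nuclei (exact sign-flip permutation p = 1).

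These gates left 1 library with at least 10 nuclei in all 4 kinds, so receptor types were drawn instead from marker sums, an alternative chosen after the data were seen. A nucleus leaned to D2 when its UMIs of Drd2, Adora2a and Gpr6 exceeded those of Drd1, Ebf1, Isl1 and Chrm4 by at least 2, and to D1 in the opposite case. D2-leaning nuclei were 27.8% to 41.7% of members and 25% to 37.5% of comparison nuclei (mean difference 2.12 points, exact sign-flip permutation p = 0.4375). D1-leaning nuclei were 16.7% to 27.5% of members and 19.4% to 34.8% of comparison nuclei (-3.21 points, exact sign-flip permutation p = 0.4375). Female pools 1 and 3 and male pool 1 had enough nuclei for a fit within each type, which left out the 7 marker genes.

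Within D2-leaning nuclei 282 genes were higher in members (2.19% of 12871 tested), and within D1-leaning nuclei 258 (2.0%). Both lists held 174 genes, which are 61.7% of the D2 list and 67.4% of the D1 list. Immediate early factors rose in 13 of 19 tested in D2-leaning and 12 of 19 in D1-leaning nuclei. Here too a factor that passed the filter through its level in members had to differ, so these counts are a description. Fosl2 had 164, 111 and 141 CPM in D2-leaning members of female pool 1, female pool 3 and male pool 1, against 0, 7.01 and 7.75 CPM in comparison nuclei. In D1-leaning nuclei of the same libraries Fosl2 had 175, 85.8 and 110 CPM in members, against 0, 9.35 and 11.5 CPM in comparison nuclei. Its groups did not overlap in either type. Its log2 fold change was 4.16 in D2-leaning and 3.40 in D1-leaning nuclei, that of Fosb 5.6 and 4.05, and that of Mest 2.25 and 1.92. Junb, Egr4 and Scg2 had 2.92, 3.44 and 1.79 in D2-leaning and 2.25, 3.10 and 1.43 in D1-leaning nuclei, and Irs2 had 1.93 and 1.74.

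Both peptides that tell the types apart were higher in members of each. Tac1 had 109, 151 and 194 CPM in D2-leaning members and 37.8, 51.7 and 73.0 CPM in their comparison nuclei, and 1267, 324 and 496 CPM in D1-leaning members and 188, 110 and 131 CPM in theirs. Penk had 902, 214 and 426 CPM in D2-leaning members and 340, 76.9 and 177 CPM in their comparison nuclei, and 170, 42.1 and 82.4 CPM in D1-leaning members and 22.4, 26.2 and 44.8 CPM in theirs. Nts was in members of both types, at 822, 141 and 141 CPM in D2-leaning and 510, 161 and 104 CPM in D1-leaning nuclei. No gene passed the test of the difference between the types (0 of 12871, 0%, edgeR; 280 at an unadjusted p under 0.05 and 0 by DESeq2). The smallest p was that of Lgr5, with a difference of 1.21 (adjusted p = 1), and Cacna1g, Cfap43, Cyyr1, Dnah6 and Dyrk3 came next. Without glutamatergic nuclei 3 genes passed that test.

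**Figure D5:**
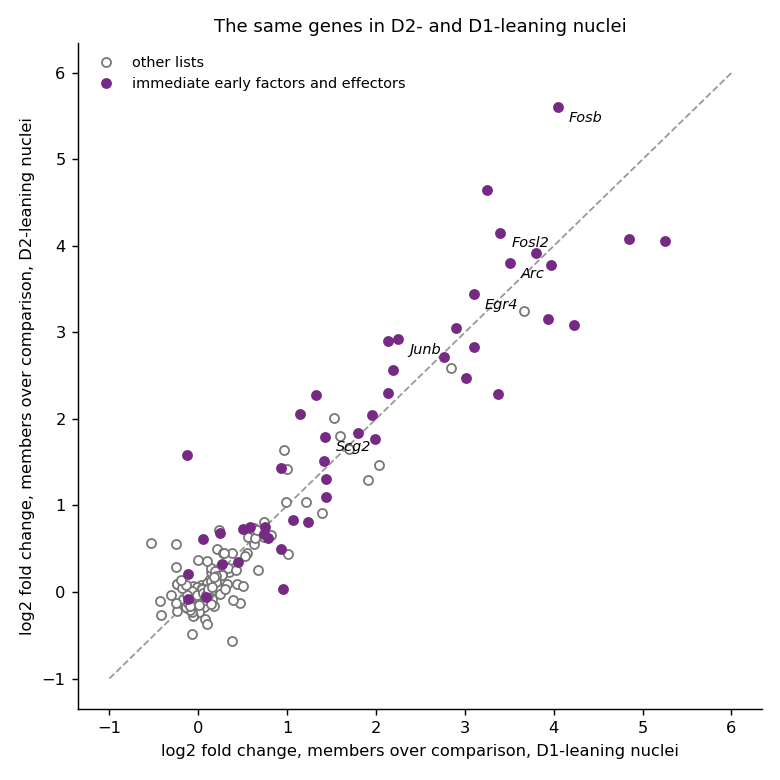
Log2 fold change of members over comparison nuclei in D2-leaning nuclei (vertical) and D1-leaning nuclei (horizontal), 1 point per gene of the pathway lists tested in both, from 3 libraries. Filled points are immediate early factors and effectors, and Fosb has 5.6 in D2-leaning and 4.05 in D1-leaning nuclei.

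Female and male members differed in sex-linked genes. Between the sexes 6 of 8398 genes tested passed (0.0714%, edgeR with label set as a term), 1 higher and 5 lower in females. Kdm5d, a Y-linked histone demethylase gene, had 0 to 1.30 CPM in female and 81.8 to 107 CPM in male pools, counted over all members. Eif2s3y had 0 to 0.124 CPM in females and 50.9 to 63.0 CPM in males, and the feature named Ddx3 had 0 to 1.30 and 63.0 to 79.0 CPM. The other 3 features carry clone names only. Sik2 (0.83, adjusted p = 0.462), Cpa6 (-1.26, adjusted p = 0.855) and Slc8a1 (0.68, adjusted p = 0.868) had the smallest p among the rest and did not pass.

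None of the 13 immediate early factors, 19 effectors and 13 peptide genes tested between the sexes passed by edgeR or DESeq2, and 0, 2 and 3 of them had an unadjusted p under 0.05. Nr4a1 had 162 to 360 CPM over all members of the female pools and 251 to 347 CPM over those of the male pools, which overlap. In female pool 2 a single member held 152736 of the 378939 UMIs of all members, and it found no match. Nts there stood at 388 CPM over all members and 641 CPM over matched members. The part of this nucleus in the values between the sexes was not tested, and without female pool 2, 7 genes passed between the sexes. The difference between members and comparison nuclei was then tested between the sexes, and 0 of 8843 genes passed (0%, edgeR; 117 at an unadjusted p under 0.05 and 0 by DESeq2). The smallest p was that of Trabd2b (-1.54, adjusted p = 0.747), followed by Alcam, Tacr1, Osbpl8, Atp2b1 and Htr4. Without female pool 3, 58 genes passed between the sexes and 13 passed for the difference, and without male pool 1, 49 and 1.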

How the data were processed

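Nuclei of 6 pooled libraries of rat nucleus accumbens shell were barcoded with a 10x 3' kit, version 3.1, after 11 cycles of cDNA amplification, per the labels' protocols. Each deposited matrix is a table of unnormalized UMI counts written by Cell Ranger 4.0.0, per the file headers, on build rn6, per the submitters' processing notes. No source used here gives the annotation release.

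Filters of 500 UMIs, 300 genes and less than 5% mitochondrial UMIs left 11131483 to 108800959 UMIs per library. Members and gene lists were chosen with earlier results of these data known. Each member was paired with the unused comparison nucleus nearest in total UMIs. UMI counts were summed per library and tested with edgeR 4.0.16 (R 4.3.3, TMM, filterByExpr, robust quasi-likelihood, Benjamini-Hochberg adjustment over all genes tested). The code was tested on simulated data. Besides list genes, the text names the 12 higher and 12 lower genes with the smallest p and the same direction in every library, without LOC, clone or mitochondrial names, and the 6 with the smallest p of each other fit. Each promoter was matched by symbol. The highest Scrublet scores, 0.8% per 1000 nuclei, were left out only as an alternative. Alternatives also covered DESeq2 1.42.0, other filters, normalization, matching, limits and single libraries.

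Replicate numbers were not used as pairs: deviations from the group means correlated at -0.498, 0.0381 and -0.319 between the female and male pools numbered 1, 2 and 3, over 7128 genes. Nothing in the sources used here says that a number marks a shared batch.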

Additional observations from a re-analysis of the deposited data

Results flagged for a closer look

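Of 78 sets of 6 library values checked, 6 had a library far from the other 5, where chance gives about 1 in 20. Male pool 3, with 12 matched members, stood apart in 4 of them. Its Drd1-gated share was 8.33 points higher in members than in comparison nuclei, which rests on 1 of 12 nuclei, against -0.252 to 0 points in the other libraries. Its members had 294 CPM of Pde1b, against 63.8 to 145 CPM elsewhere, and 534 CPM of Cartpt, against 40.5 to 181 CPM. They had 26.7 CPM of Mob3b, against 75.2 to 94.4 CPM. Members of female pool 2 had 2016 CPM of Arpp21, against 1197 to 1376 CPM, and members of male pool 2 had 101 CPM of Sgk3, against 48.6 to 66.8 CPM.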

How the results depend on the processing

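Leaving out glutamatergic nuclei, single label sets and marker sums were alternatives chosen after seeing the data. The 515 higher and 56 lower genes became 782 and 94 with no filter on low counts, 262 and 13 with DESeq2, 49 and 1 without the library block and 1036 and 244 with all comparison nuclei unmatched. Raising the Nr4a3 limit to 4 gave 93 lower, and leaving out glutamatergic nuclei gave 28 lower. Set A alone gave 988 and 288 (427 and 21 without glutamatergic nuclei) and set B alone 275 and 17 (264 and 16 without). Leaving out 1 library gave 187 to 617 higher and 2 to 75 lower, lowest without female pool 3 (187 and 4) and male pool 1 (204 and 2), where 177 and 184 of the 515 remained called. Between the sexes 6 genes became 16 with no filter, 12 with the higher Nr4a3 limit and 6 to 58 without 1 library. At the higher Nr4a3 limit male pools 2 and 3 held 5 members each, under the 10 nuclei needed for a sum. Male pool 1 was then the only male library, so the count of 12 has no male replication and no conclusion about sex is drawn from it. The sex difference of the change went to 0 to 13 without 1 library. With the replicate block in place of label set, 6 genes passed between the sexes (2 higher and 4 lower). The comparisons of members with comparison nuclei already hold library as a block.

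In D2-leaning nuclei 282 higher and 6 lower genes became 132 and 3 with DESeq2, 15 lower with no filter, and 47 to 441 and 0 to 36 without 1 library. In D1-leaning nuclei 258 and 13 became 135 and 1 with DESeq2, 395 and 28 with no filter, and 44 to 427 and 0 to 35 without 1 library. The difference between the types had 0 genes and became 1 with no filter and 3 without glutamatergic nuclei. The planned receptor gates and up to 3 matches within them were not run as fits, since 1 library had enough nuclei.

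The Drd2-gated share difference of -2.33 points became 0.734 with a limit of 1 UMI and 2.12 with marker sums, and was -4.79 to 1.10 without 1 library. The Drd1-gated difference of 1.33 points became 5.08 with a limit of 1 UMI (exact sign-flip permutation p = 0.1875) and -3.21 with marker sums and was -0.0742 to 1.64 without 1 library. The Nts share difference was 17.6 to 24.5 points without 1 library, where 5 libraries cannot give a p under 0.0625. The female minus male share of members, 2.72 points, was -0.0892 to 5.955 without 1 library, negative without female pool 3. Among single genes, Drd2 turned to 0.11, 0.14 without doublets as well, and 0.29 in set A, where it passed (adjusted p = 0.0404), each without glutamatergic nuclei. Arhgef40 turned to 0.033 in set A without glutamatergic nuclei, and Sox6 to 0.22 unmatched. Of 1741 gene values under alternatives 1502 kept direction and side of the threshold, 186 no longer passed, 48 newly passed and 5 reversed. The causes were not tested.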
